A study of Saccharomyces cerevisiae with 22 samples.

Results

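The 54 genes described here are the nuclear genes of Saccharomyces cerevisiae whose symbol is COX, QCR, SDH or ATP followed by a number, with an optional A or B for the COX genes, out of 6002 nuclear protein-coding genes of the RefSeq annotation of sacCer3. Binding of Sus1 to them was mapped by ChIP-exo, in which an exonuclease trims immunoprecipitated DNA up to the cross-linked protein. Sus1 is a small subunit shared by the SAGA co-activator, where it belongs to the histone H2B deubiquitination module, and by the mRNA export complex TREX-2. All strains were of the BY4741 background, and the tagged strains carried Sus1 with a MYC tag. They were otherwise wild type, an spt7 mutant (spt7-deletion in the labels, a truncated Spt7 according to the authors) or spt8Δ (spt8-deletion), and both mutants are described as lacking SAGA while keeping its relative SLIK. Cultures in YPD were kept at 25 °C, or moved to 37 °C for 15 min and cooled to 25 °C again for the cross-linking. The labels name 22 samples, 3 of each of the 6 tagged conditions and 4 of cells without a tag. One list of peaks was used for each tagged condition, so that no error between replicates can be given and no test was made. The samples without a tag were not analysed here.

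Oxidative phosphorylation is the last stage of respiration, in which complexes of the mitochondrial inner membrane pass electrons to oxygen and ATP synthase uses the resulting proton gradient to make ATP. Budding yeast prefers to ferment glucose and represses most of these genes while glucose is plentiful, as it is in YPD, and the Hap2/3/4/5 complex, which binds the sequence CCAAT, is a well-known activator of many of them when the cells respire. The genes fall into 9 of succinate dehydrogenase (complex II), 6 of the cytochrome bc1 complex (complex III), 20 of cytochrome c oxidase (complex IV) and 19 of ATP synthase (complex V). Of these, 33 encode subunits, 20 encode factors needed to assemble a complex or to express its mitochondrial subunits, and SDH9 is a minor copy of SDH1. A few subunits of complexes III, IV and V are encoded by the mitochondrial genome and are not among them.

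A gene was counted as bound where the summit of a peak lay in the 500 bp before its start codon (upstream), in its coding region or in the 150 bp after its stop codon (downstream). In all, 610 summits were counted at the 54 genes over the 6 lists, 151 upstream, 427 coding and 32 downstream. The strength of a peak is its fold enrichment relative to the background around it in that list. The lists held between 16593 and 20179 peaks, and their lowest local background, solved from the deposited values, ranged from 5.98 reads in the wild type at 37 °C to 36.3 reads in the spt7 mutant at 37 °C (10.8 in the wild type at 25 °C, 22.2 in the spt7 mutant at 25 °C, 7.99 in spt8Δ at 25 °C and 28.8 in spt8Δ at 37 °C). Weak sites are more easily called in deeper lists, so a fold enrichment describes a peak within its own list and was not compared between lists. Where a pair of values is given for a strain, the first is from 25 °C and the second from 37 °C.

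The sequences below, from sacCer3 and printed 5′ to 3′ on the strand of the gene, are the places to which the results refer. The first 4 are from sites of overlapping peaks that 5 or 6 lists share, and the capitals mark the bases within 5 bp of the summit of a list. They are the end of the COX15 coding region (chr5:454752-454859, plus strand, exonic, 6 lists), the coding region of ATP7 (chr11:407537-407736, minus strand, exonic, 6 lists), the coding region of COX6 (chr8:209833-210110, plus strand, exonic, 6 lists) and the stretch upstream of COX12 (chr12:225438-225599, minus strand, 5 lists), which lies in the coding region of the neighbouring gene RIC1.
COX15 coding: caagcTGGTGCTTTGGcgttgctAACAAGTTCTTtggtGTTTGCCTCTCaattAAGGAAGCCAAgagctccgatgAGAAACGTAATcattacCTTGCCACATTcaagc
ATP7 coding: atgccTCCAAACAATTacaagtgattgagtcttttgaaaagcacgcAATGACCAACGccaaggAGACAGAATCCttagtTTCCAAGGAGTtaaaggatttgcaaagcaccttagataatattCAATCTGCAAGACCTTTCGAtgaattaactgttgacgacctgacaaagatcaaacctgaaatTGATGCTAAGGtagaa
COX6 coding: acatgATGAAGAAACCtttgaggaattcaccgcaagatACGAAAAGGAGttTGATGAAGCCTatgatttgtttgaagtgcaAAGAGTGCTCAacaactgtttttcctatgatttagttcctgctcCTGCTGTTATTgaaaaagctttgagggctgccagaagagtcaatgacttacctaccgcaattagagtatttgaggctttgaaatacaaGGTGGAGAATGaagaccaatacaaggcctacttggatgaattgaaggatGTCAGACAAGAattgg
COX12 upstream: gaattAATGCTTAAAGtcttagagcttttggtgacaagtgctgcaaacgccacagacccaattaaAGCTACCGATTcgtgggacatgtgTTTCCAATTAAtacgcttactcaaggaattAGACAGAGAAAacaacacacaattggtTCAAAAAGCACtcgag
The next 3 are the bases -400 to -101 from the start codon of COX7, which had an upstream summit in every list (chr13:779228-779527, minus strand), of COX6, which had one after heat only (chr8:209305-209604, plus strand), and of QCR6, which had no summit in any window of any list (chr6:224870-225169, minus strand). Capitals mark CCAAT on either strand, so that ATTGG is a CCAAT of the other strand.
COX7 upstream: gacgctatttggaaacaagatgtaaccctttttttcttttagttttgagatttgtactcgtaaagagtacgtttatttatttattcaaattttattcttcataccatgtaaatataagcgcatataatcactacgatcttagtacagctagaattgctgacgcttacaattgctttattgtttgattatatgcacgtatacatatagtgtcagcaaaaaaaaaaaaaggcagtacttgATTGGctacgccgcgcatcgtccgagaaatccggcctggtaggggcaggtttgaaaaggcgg
COX6 upstream: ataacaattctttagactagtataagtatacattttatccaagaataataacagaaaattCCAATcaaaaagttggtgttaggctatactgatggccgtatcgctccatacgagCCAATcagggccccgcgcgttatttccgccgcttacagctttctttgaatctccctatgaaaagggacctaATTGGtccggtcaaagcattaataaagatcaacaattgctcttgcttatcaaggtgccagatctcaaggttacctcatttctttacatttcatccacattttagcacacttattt
QCR6 upstream: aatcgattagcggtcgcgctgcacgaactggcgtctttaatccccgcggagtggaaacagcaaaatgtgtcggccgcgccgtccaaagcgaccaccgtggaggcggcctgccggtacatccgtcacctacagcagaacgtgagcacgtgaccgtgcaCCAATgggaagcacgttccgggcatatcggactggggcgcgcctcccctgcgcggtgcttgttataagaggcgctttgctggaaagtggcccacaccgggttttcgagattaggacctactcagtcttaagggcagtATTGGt

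Sus1 summits were found in the upstream window of 24 of the 54 genes in the wild type at 25 °C (44.4%, with a 95% Wilson interval of 32.0 to 57.6%), where 39.7% of all genes had one. After heat the wild type had 20 (37.0%, interval 25.4 to 50.4%), and 44.8% of all genes. In the spt7 mutant it was 19 at 25 °C (35.2%, interval 23.8 to 48.5%, all genes 38%) and 22 at 37 °C (40.7%, interval 28.7 to 54.0%, all genes 40.8%). In spt8Δ it was 22 at both temperatures, against 41.8% of all genes at 25 °C and 40.2% at 37 °C. The share of all genes lay within the interval of these genes in every list, and was exceeded in 2 of the 6. The intervals cover counting error only, and the genes in them share the libraries of a list.

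**Figure D1:**
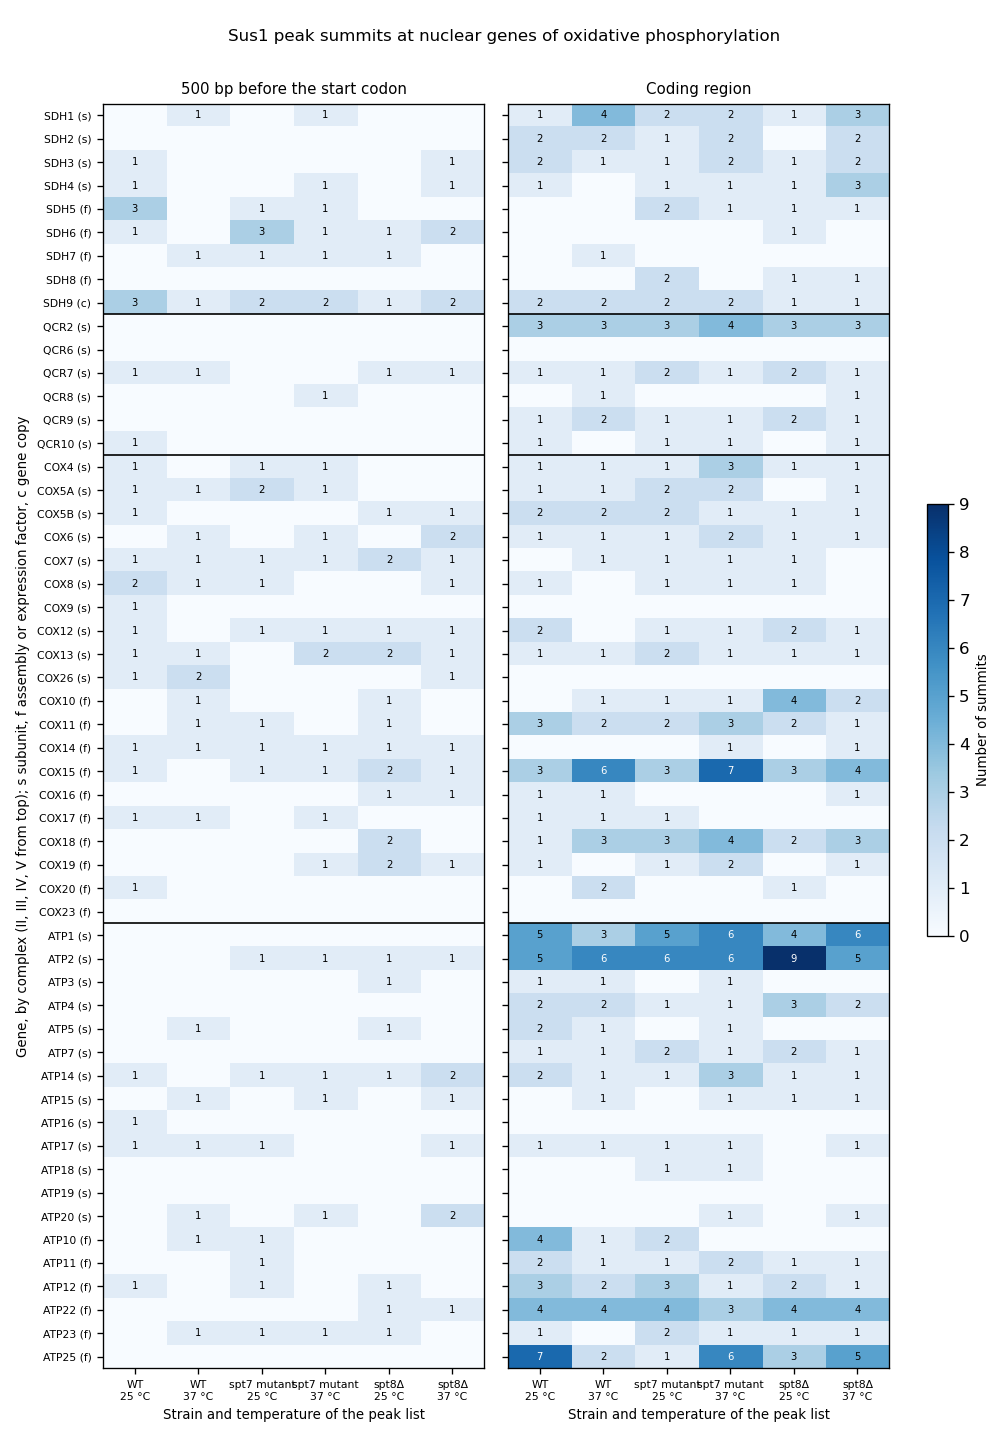
Number of Sus1 summits (colour and digit, blank where 0) in the upstream window (left) and the coding region (right) of each of the 54 genes (rows, grouped by complex II, III, IV and V) in each of the 6 peak lists (columns). COX7, COX14 and SDH9 have an upstream summit in all 6 lists, ATP1 has 29 coding summits and no upstream one, and the rows of QCR6, COX23 and ATP19 are empty.

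In the coding region, a summit was found in 36 genes of the wild type at each temperature (66.7%, interval 53.4 to 77.8%), where 74.7% of all genes had one at 25 °C and 77.3% at 37 °C. The numbers were 38 and 40 in the spt7 mutant (all genes 75.2% and 76.3%) and 33 and 38 in spt8Δ (all genes 74.8% and 72.1%), at 25 and 37 °C. The share was below that of all genes in each list. In spt8Δ at 25 °C the share of all genes lay above the interval of these genes (61.1%, interval 47.8 to 73.0%), and in the other lists within it. These are short genes, however, with a median coding length of 465 bp against 1200 bp for all genes, and 45 of the 54 are under 1000 bp. Of these 45, a coding summit was found in 62.2 and 60% in the wild type (all genes under 1000 bp 56.7 and 60.4%). The shares were 64.4 and 68.9% in the spt7 mutant (58.8 and 59.8%) and 53.3 and 64.4% in spt8Δ (57.6 and 54.6%). In spt8Δ at 25 °C the 57.6% lay within the interval of the 45 genes (39.1 to 67.1%). Per kb of coding region the 54 genes had more summits than all genes in each of the 6 lists. The rates were 2.03 against 1.57 in the wild type at 25 °C and 1.86 against 1.59 at 37 °C. They were 1.94 against 1.71 and 2.30 against 1.91 in the spt7 mutant, and 1.80 against 1.50 and 1.91 against 1.59 in spt8Δ, at 25 and 37 °C.

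The higher rate per kb was seen in both length classes. In the 45 genes under 1000 bp it was between 1.56 and 2.17 summits per kb, against 1.46 to 1.74 for all genes of that length, and in the 9 longer genes between 1.82 and 2.49, against 1.50 to 1.95. Complexes III, IV and V each exceeded the rate of all genes in 6 lists, whereas complex II did so in 1, with rates from 0.956 to 1.78. ATP1 and ATP2 held the most coding summits, and without them the rates were between 1.58 and 2.16, still above all genes in each list but by as little as 1.58 against 1.50 in spt8Δ at 25 °C.

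**Figure D2:**
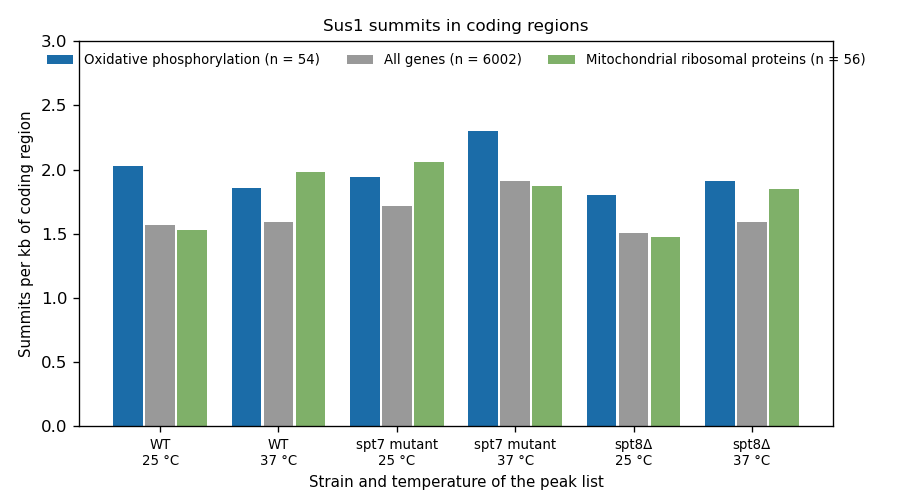
Summits per kb of coding region (bars) for the 54 oxidative phosphorylation genes, all 6002 genes and 56 genes of mitochondrial ribosomal proteins in each peak list. There is 1 list per condition, so the bars carry no error. The bar of the oxidative phosphorylation genes is above that of all genes in each list, from 1.80 against 1.50 in spt8Δ at 25 °C to 2.30 against 1.91 in the spt7 mutant at 37 °C.

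Downstream summits were few. They were found at 6 genes in the wild type at 25 °C and at 6 at 37 °C (9.36% and 12.2% of all genes), at 3 and 9 in the spt7 mutant (8.65% and 10%) and at 3 and 5 in spt8Δ (10.4% and 9.2%). No downstream site of these genes was present in more than 3 lists. Such sites were rare among all genes too, with 3.45% of downstream sites in 4 lists, 0.758% in 5 and 0.337% in 6. The one site in 3 lists lay after SDH4, a membrane anchor subunit of succinate dehydrogenase, with fold enrichments of 3.58 in the wild type at 37 °C and of 2.54 and 1.53 in the spt7 mutant.

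Genes of cytochrome c oxidase had an upstream summit more often than genes of ATP synthase in each of the 6 lists. In the wild type at 25 °C the numbers were 13 of 20 for complex IV (65%, interval 43.3 to 81.9%) and 4 of 19 for complex V (21.1%, interval 8.51 to 43.3%), and at 37 °C they were 10 (50%) and 6 (31.6%). In the spt7 mutant they were 8 (40%) and 7 (36.8%) at 25 °C and 10 (50%) and 5 (26.3%) at 37 °C, and in spt8Δ 11 (55%) and 7 (36.8%) at 25 °C and 11 (55%) and 6 (31.6%) at 37 °C. The intervals of both complexes overlapped in each list, barely so in the wild type at 25 °C. When summits inside the coding region of another gene were left out, complex IV still had the larger share in 6 lists, and the difference ranged from 8.68 percentage points in the wild type at 37 °C to 34.5 in the wild type at 25 °C. Of the 12 genes with no upstream summit in any list, 6 are counted with complex V (ATP1, ATP4, ATP7, ATP18, ATP19 and the factor ATP25). Complex III has 3 (QCR2, QCR6 and QCR9), complex II 2 (SDH2 and the factor SDH8) and complex IV 1 (the factor COX23). The 12 are 22.2% of the 54, and 16.9% of all genes had no upstream summit in any list. The upstream share of the 9 complex II genes was 55.6 and 33.3% in wild-type cells. It was 44.4 and 66.7% in spt7 mutant cells, and 33.3 and 44.4% in spt8Δ. For the 6 genes of complex III these shares were 33.3 and 16.7%, 0 and 16.7%, and 16.7 and 16.7%. Complex II thus exceeded complex IV in each list of spt7 mutant cells, and was lower in the others. Complex III was below complex V in every list but that of the wild type at 25 °C.

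**Figure D3:**
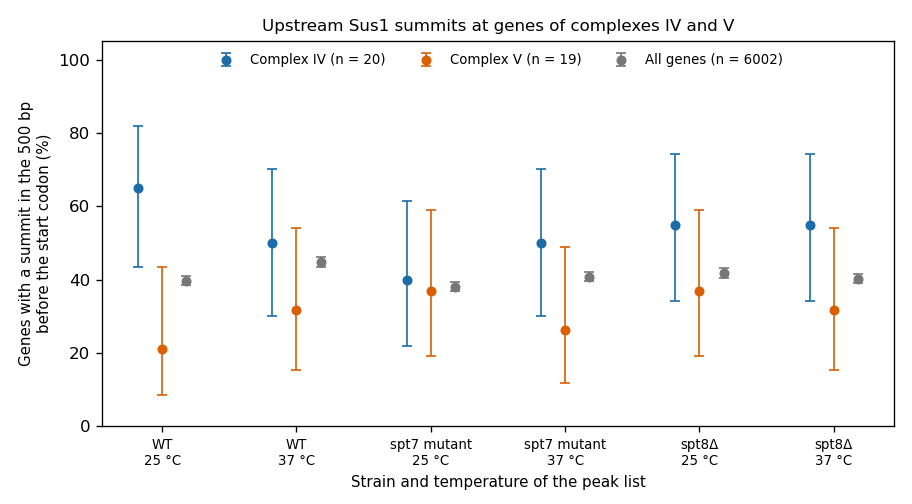
Share of genes with an upstream Sus1 summit (points, with 95% Wilson intervals that cover counting error only) for the 20 genes of complex IV, the 19 of complex V and all 6002 genes, in each peak list. The point of complex IV is above that of complex V in each list, from 65% against 21.1% in the wild type at 25 °C to 40% against 36.8% in the spt7 mutant at 25 °C.

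Of the 10 subunit genes of complex IV, 9 (90%, interval 59.6 to 98.2%) had an upstream summit in the wild type at 25 °C, COX6 being the exception. In the other lists the number was between 4 and 7. The 13 subunit genes of ATP synthase had 3 in the wild type at 25 °C (ATP14, ATP16 and ATP17) and between 3 and 5 in the other lists. In spt8Δ at 25 °C the share of the complex IV subunits less that of complex V was 9.23 percentage points, and -0.769 when summits inside another gene were left out.

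Over all complexes, the number of subunit genes with an upstream summit at 25 °C was 16 of 33 in the wild type (48.5%, interval 32.5 to 64.8%), 8 in the spt7 mutant (24.2%, interval 12.8 to 41.0%) and 9 in spt8Δ (27.3%, interval 15.1 to 44.2%). The difference from the wild type was -24.2 percentage points in the spt7 mutant (95% Newcombe interval -44.1 to -1.07, for counting error only) and -21.2 in spt8Δ (interval -41.6 to 2.08, which includes 0). These intervals treat the shares as independent, although the same 33 genes are in each, so they are no test between strains. The lower numbers came from complexes II, III and IV, as complex V had 3, 3 and 4 of its 13 subunits. At 37 °C the numbers were 12, 13 and 15. For the 20 factor genes the numbers at 25 °C were 7 in the wild type (35%, interval 18.1 to 56.7%), 10 in the spt7 mutant (50%, interval 29.9 to 70.1%) and 12 in spt8Δ (60%, interval 38.7 to 78.1%), and 7, 8 and 6 at 37 °C. For all genes the shares at 25 °C were 39.7% in the wild type, 38% in the spt7 mutant and 41.8% in spt8Δ. The intervals overlap and both mutants were set against the same wild-type list. The list of the spt7 mutant is deeper and the spt8Δ list shallower than that of the wild type, and the part of depth in these differences was not tested. Under the other settings tried, the difference of the subunits from the wild type ranged from -27.3 to -9.09 percentage points in the spt7 mutant and from -24.2 to -3.03 in spt8Δ.

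**Figure D4:**
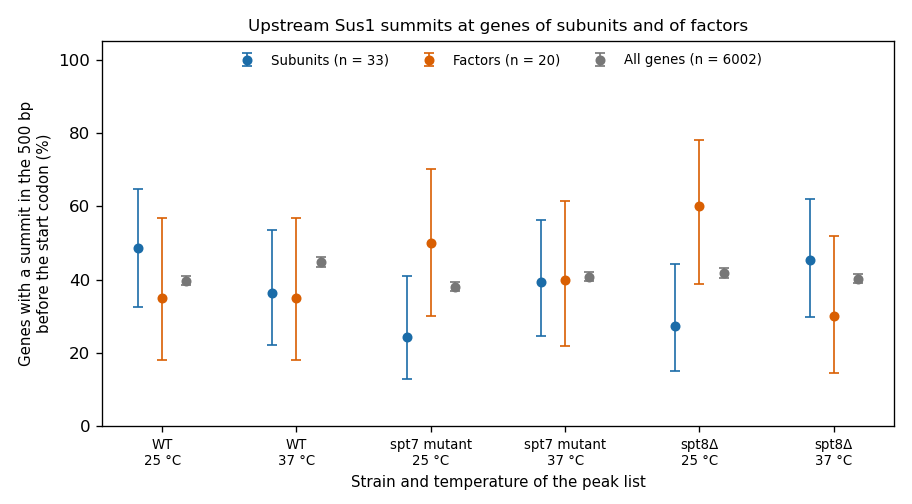
Share of genes with an upstream Sus1 summit (points, with 95% Wilson intervals that cover counting error only) for the 33 subunit genes, the 20 genes of assembly or expression factors and all 6002 genes, in each peak list. At 25 °C the point of the subunits is at 48.5% in the wild type, 24.2% in the spt7 mutant and 27.3% in spt8Δ, and that of the factors at 35%, 50% and 60%.

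Of the 16 subunit genes with an upstream summit in the wild type at 25 °C, 3 had one in both mutants at that temperature (ATP14, COX7 and COX12) and 6 in neither, which is 18.8% and 37.5% of them. Of the 2383 genes with one in the wild type among all genes, 33.9% had one in both mutants and 25.7% in neither. The 6 were ATP16, COX9, COX26, QCR10, SDH3 and SDH4. They include SDH3 and SDH4, which encode the membrane anchor of succinate dehydrogenase, and ATP16, the delta subunit of the F1 part of ATP synthase. A summit in both mutants and not in the wild type was found at ATP2 alone among the subunits, and at ATP23, COX11 and SDH7 among the factors. These are 7.41% of the 54 genes, and 7.95% of all genes had that pattern. At 37 °C, 5 of the 12 subunit genes bound upstream in the wild type had a summit in both mutants (41.7%) and 1 in neither (8.33%). Of all genes it was 36.2% and 30.5%. For the 7 factor genes of the wild type these shares were 57.1% and 28.6% at 25 °C and 14.3% and 42.9% at 37 °C. For the 54 genes together they were 33.3% and 33.3% at 25 °C and 35% and 20% at 37 °C.

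An upstream summit in all 6 lists was found at 3 of the 54 genes, and 5.8% of all genes had one. COX7, which encodes a small membrane subunit of cytochrome c oxidase, had a highest upstream fold enrichment of 2.89 in the wild type at 25 °C, 5.02 at 37 °C, 2.54 and 3.17 in the spt7 mutant, and 4.0 and 2.81 in spt8Δ. In 4 of the lists a summit lay between 243 and 270 bp before the start codon, and in the other lists, the spt7 mutant at 25 °C and spt8Δ at 37 °C, it lay 414 and 440 bp before it. No other gene's coding region reaches into that window, and the only CCAAT begins 162 bp before the start codon, in the sequence above. COX14, whose product couples the synthesis of Cox1 to its assembly, had 4.02 and 3.58 in the wild type, 2.87 and 2.38 in spt7 mutant cells and 2.39 and 1.67 in spt8Δ, at 25 and 37 °C. Its summits were spread from 410 to 38 bp before the start codon, so the 6 lists do not mark a single place. SDH9 had 4.85 and 1.96 in the wild type, 4.26 and 3.22 in spt7 mutant cells and 6.14 and 3.55 in spt8Δ. It was the only one of the 54 with an upstream site of overlapping peaks in all 6 lists. That site is a chain of peaks with summits from 487 to 129 bp before the start codon, so it does not mark a single place. The SDH9 summits 486 and 487 bp before the start codon lie 11 and 10 bp from a tRNA gene. SDH9 and SDH1 are similar copies, and how reads that fit both were treated is not given in the sources used here.

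**Figure D5:**
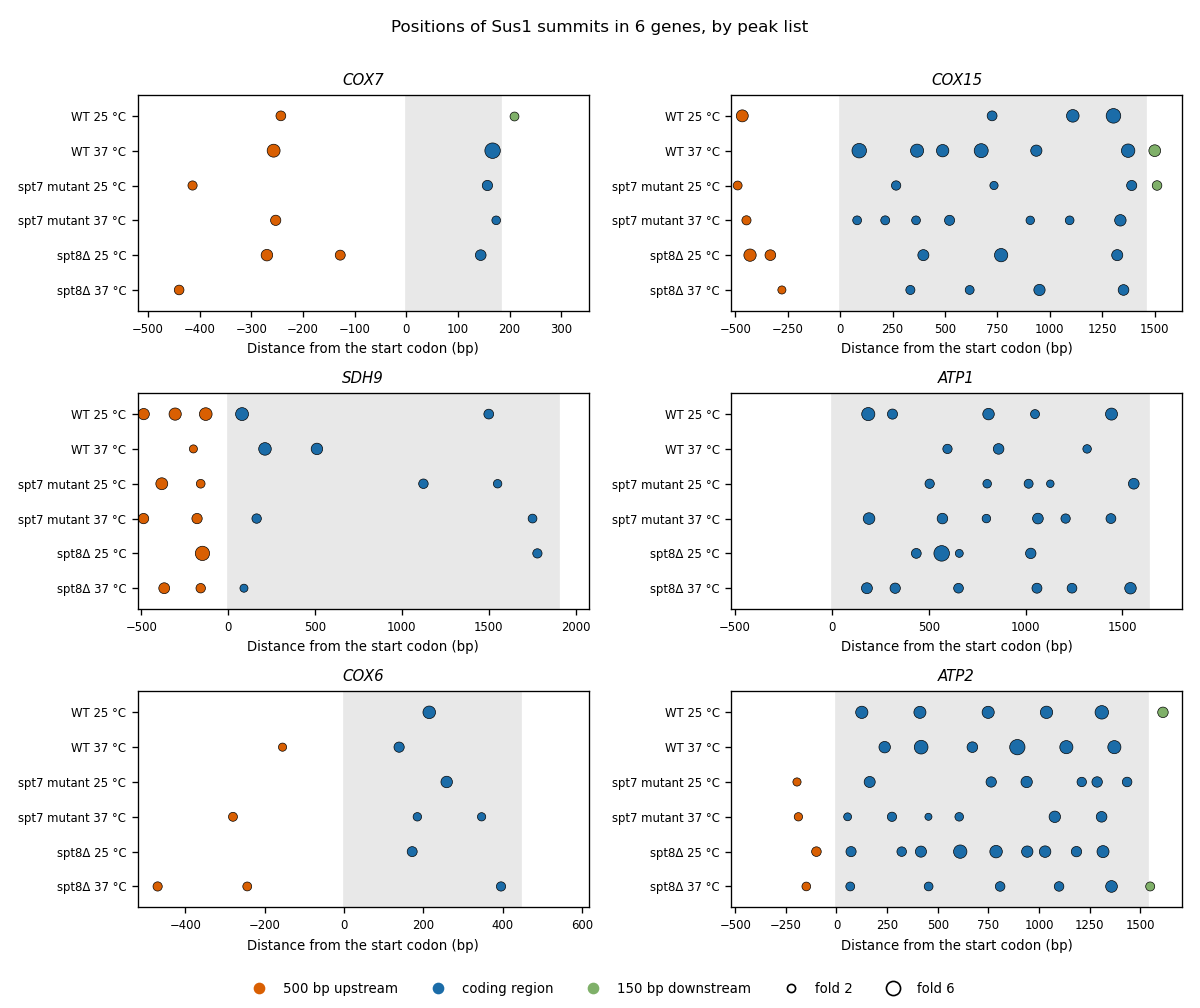
Distance of each Sus1 summit from the start codon (horizontal axis, bp) in each peak list (rows) at COX7, SDH9, COX6, COX15, ATP1 and ATP2, with the coding region shaded, the window given by colour and the fold enrichment within the list by the area of the circle. The COX7 summits at -243 to -270 recur in 4 lists, COX6 has upstream summits in the 3 lists from 37 °C only, and the 29 summits of ATP1 all lie in its coding region.

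Upstream summits in 5 of the 6 lists were found at 5 more genes. This is a share of 9.26%, close to the 8.95% of all genes with a summit in 5 lists. COX12, a subunit exposed to the intermembrane space, had 2.29 in the wild type at 25 °C and none at 37 °C, 3.27 and 2.95 in the spt7 mutant and 2.89 and 2.58 in spt8Δ. These 5 summits, between 417 and 276 bp before the start codon, form a single site that falls in the coding region of RIC1. COX13, another nuclear subunit of cytochrome c oxidase, had 2.38 and 3.73 in the wild type, none and 2.52 in the spt7 mutant and 6.12 and 2.95 in spt8Δ, and its window is free of other genes. ATP14, subunit h of ATP synthase, had 4.42 in the wild type at 25 °C and none at 37 °C, 2.44 and 1.33 in the spt7 mutant and 3.22 and 3.59 in spt8Δ. Of its 6 summits, 4 lay between 417 and 332 bp before the start codon and the others within 34 bp of it. SDH6, an assembly factor of complex II, had 1.87 in the wild type at 25 °C and none at 37 °C, 3.62 and 2.23 in the spt7 mutant and 4.89 and 2.88 in spt8Δ. COX15, which takes part in the synthesis of heme A for cytochrome c oxidase, had 4.31 in the wild type at 25 °C and none at 37 °C, 2.38 and 2.52 in the spt7 mutant and 4.56 and 1.98 in spt8Δ. All 6 of its upstream summits fall in the coding region of EMP65. The wild type at 37 °C lacked the summit at 4 of these 5 genes. That list has the lowest background and also the highest upstream share of all genes (44.8%). The part of depth in the missing summits was not tested.

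Such overlap with neighbours was common. The upstream windows of 35 of the 54 genes overlapped the coding region of another gene, and 56 of the 151 upstream summits lay in one. The upstream summits lay a median of 311 bp before the start codon, and those of all genes 305 bp. Of the 610 summits, 5 overlapped a tRNA gene or lay within 200 bp of one.

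In the coding regions, 22 of the 54 genes had a summit in all 6 lists (50.1% of all genes) and 6 in none (7.23%). When overlapping peaks were merged into sites, 11 of 147 coding sites of these genes were present in all 6 lists (7.48%, against 5.34% for all genes), and 1 of 79 upstream sites (1.27%, against 2.17%). The 11 coding sites lay in 8 genes, and they belong to the catalytic core of ATP synthase, to its stalk, to complexes III and IV and to 2 factors.

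ATP2, which encodes the catalytic beta subunit of ATP synthase, had 37 coding summits over the lists, the most of the 54 genes. It had 5 and 6 in the wild type, 6 and 6 in spt7 mutant cells and 9 and 5 in spt8Δ, at 25 and 37 °C. Its highest fold enrichment in the coding region was 5.44 and 7.01 in the wild type, 3.85 and 3.92 in spt7 mutant cells and 5.35 and 4.12 in spt8Δ. Its summits covered the coding region from end to end, and 2 sites of overlapping peaks were present in all lists. ATP1, the alpha subunit that forms the F1 ring with beta, had 5 and 3 coding summits in the wild type, 5 and 6 in spt7 mutant cells and 4 and 6 in spt8Δ, and no summit in the upstream or downstream window of any list. Its highest fold enrichment was 5.18 and 3.38 in the wild type, 3.45 and 4.05 in spt7 mutant cells and 7.23 and 3.99 in spt8Δ. The gene is 1638 bp long, at chr2:37053-38690. ATP7, which encodes a subunit of the stator stalk, likewise had no upstream summit, and the larger of its coding sites held summits of every list between 264 and 443 bp from the start codon, at fold enrichments of 3.01 and 3.01 in the wild type, 3.87 and 3.06 in spt7 mutant cells and 2.63 and 2.03 in spt8Δ, the strongest peak of the site in each list.

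COX15 had 26 coding summits and 2 sites in all lists. The later site is the narrowest of the 11, with the 6 summits, 1 for each list, between 1304 and 1391 bp from the start codon of a gene of 1461 bp, as marked in the sequence above. Its fold enrichments were 6.37 and 5.40 in the wild type, 3.09 and 3.94 in spt7 mutant cells and 3.70 and 3.42 in spt8Δ. In the wild type at 25 °C and in the spt7 mutant at both temperatures it was the strongest coding peak of the gene. COX6, a subunit of cytochrome c oxidase, had 1 site with 4.76 and 3.15 in the wild type, 3.96 and 2.15 in spt7 mutant cells and 3.00 and 2.58 in spt8Δ. Those summits ranged from 139 to 396 bp from the start codon and thus do not mark 1 base.

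In complex III, QCR2, which encodes a core protein of the complex, had 3 or 4 coding summits in each list and none upstream in any. At its site in all lists the fold enrichments were 4.30 and 2.15 in the wild type, 2.68 and 4.46 in spt7 mutant cells and 3.12 and 2.68 in spt8Δ. QCR7, a small subunit, had 2.72 and 2.87 in the wild type, 3.14 and 2.23 in spt7 mutant cells and 5.45 and 2.25 in spt8Δ. ATP22, a factor for the translation of the mitochondrial ATP6 mRNA, had 23 coding summits and 2 sites in all lists. At the one nearer to its stop codon the fold enrichments were 3.31 and 4.57 in the wild type, 2.58 and 2.68 in spt7 mutant cells and 1.78 and 2.45 in spt8Δ, and at the other they were 3.14 and 3.15, 3.88 and 2.47, and 6.56 and 3.92.

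The 5 genes with the highest fold enrichment anywhere were ATP14, ATP1, COX7, SDH2 and ATP2, and these values came from the 2 lists of lowest background. The median fold enrichment of all peaks was also highest in these lists, at 3.49 in the wild type at 37 °C and 3.32 in spt8Δ at 25 °C. It was between 2.33 and 3.14 in the others, so the ranking favours these 2 lists. ATP14 reached 7.88 and COX7 7.17 in the coding region in the wild type at 37 °C. SDH2, the iron-sulfur subunit of succinate dehydrogenase, reached 7.14 there at the last base of its coding region. Its highest coding fold enrichment was 4.80 in the wild type at 25 °C, 2.21 and 1.89 in the spt7 mutant, and 2.70 in spt8Δ at 37 °C, with no coding summit in spt8Δ at 25 °C. It had no upstream summit in any list.

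At the other end, no summit in any window of any list was found at 3 genes, QCR6, COX23 and ATP19, and 3.12% of all genes had none. QCR6 encodes the acidic hinge protein of complex III, COX23 a copper-related assembly factor and ATP19 subunit k of ATP synthase. COX9, which encodes a small membrane subunit of cytochrome c oxidase, had a single summit, upstream in the wild type at 25 °C, with a fold enrichment of 1.99. ATP16 had 1 upstream in the wild type at 25 °C, 497 bp before the start codon, at 4.21 and 1 downstream in the spt7 mutant at 37 °C at 3.22. ATP18, a small membrane subunit of ATP synthase, had 1 summit in the spt7 mutant at 25 °C and 2 at 37 °C, at 2.18 to 2.93, and none in the other strains. These 6 genes are short, at 180 to 483 bp.

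Of the genes with an upstream summit at either temperature, 24 of 34 in the wild type (70.6%, and 64.4% for all genes), 15 of 28 in the spt7 mutant (53.6%, and 60.1%) and 16 of 30 in spt8Δ (53.3%, and 62.8%) had it at one temperature only. In the wild type 10 of the 54 had an upstream summit at both (22.2% of all genes), 14 at 25 °C only (17.5% of all genes) and 10 at 37 °C only (22.6%), so that the share changed by -7.41 percentage points where that of all genes changed by 5.05. In the spt7 mutant, 13 had one at both (22.5%), 6 at 25 °C only (15.5%) and 9 at 37 °C only (18.3%), a change of 5.56 points against 2.82. In spt8Δ, 14 had one at both (22.2%), 8 at 25 °C only (19.5%) and 8 at 37 °C only (17.9%), a change of 0 against -1.58. The 37 °C list is shallower than the 25 °C list in the wild type and deeper in both mutants, and the part of depth in these changes was not tested. The direction turned with the setting: an upstream window of 1000 bp gave 3.70 points in the wild type, and equal numbers of peaks or a window of 300 bp each gave -1.85 in the spt7 mutant. Without summits inside another gene the changes were -1.85 and 0.

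In the wild type 30 genes had a coding summit at both temperatures (55.6%, and 65.9% of all genes), 6 at 25 °C only (8.85% of all genes) and 6 at 37 °C only (11.4%). In the spt7 mutant the numbers were 35 (64.8%, and 67.6% of all genes), 3 (7.68%) and 5 (8.78%), and in spt8Δ 29 (53.7%, and 63.2%), 4 (11.7%) and 9 (8.91%). The share therefore changed by 0 points in the wild type, 3.70 in the spt7 mutant and 9.26 in spt8Δ, where the shares of all genes changed by 2.58, 1.10 and -2.77. Limited to the 5000 strongest peaks, the change in spt8Δ was -7.41 points.

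In 3 genes an upstream summit was present at 37 °C and absent at 25 °C in all 3 strains, and 1.55% of all genes had that pattern. They were COX6, ATP15, which encodes the epsilon subunit of ATP synthase, and ATP20, which encodes its subunit g. COX6 had 2.01 in the wild type, 2.42 in the spt7 mutant and 2.56 in spt8Δ after heat. ATP15 had 4.16, 2.60 and 1.71, with the summits between 491 and 430 bp before the start codon and no other gene there. ATP20 had 3.58, 3.17 and 3.18, and of its 4 summits 2 fall in the coding region of MCM4. The COX6 summits lay 155 bp before the start codon in the wild type, 280 in the spt7 mutant and 470 and 244 in spt8Δ. All 4 fall in the coding region of SMF2 or of YHR050W-A, which cover 270 bp of that window. The CCAAT sequences of the window begin at 340, 286 and 215 bp before the start codon, as printed above. The reverse pattern, at 25 °C and not at 37 °C in each strain, was found at 1 gene, ATP12, an assembly chaperone of F1, and in 0.733% of all genes. ATP12 had 1.95 in the wild type, 2.96 in the spt7 mutant and 3.27 in spt8Δ, and these summits lie in the coding region of PFD1.

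COX5A and COX5B encode alternative forms of the same subunit of cytochrome c oxidase, and COX5A is known as the form of aerobic cells and COX5B as that of cells short of oxygen. COX5A had an upstream summit in both lists of the wild type, with highest fold enrichments of 4.40 and 3.87, and in both of the spt7 mutant, with 2.50 and 1.64, and none in spt8Δ at either temperature. COX5B had one in the wild type at 25 °C (4.30) and in spt8Δ at both temperatures (3.12 and 3.12), and none in the wild type at 37 °C or in the spt7 mutant. Both forms were bound upstream in the same list in the wild type at 25 °C alone. The COX5B summits lay between 398 and 355 bp before the start codon, and the one at 398 bp, from spt8Δ at 37 °C, falls in the coding region of HOS4. Those of COX5A fell at 432 to 420 bp, in the coding region of MSG5, and at 282 and 258 bp outside it. In the coding region COX5B had a summit in each list and COX5A in each but spt8Δ at 25 °C.

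CCAAT on either strand was found in the 500 bp upstream window of 47 of the 54 genes (87.0%), and in 62.4% of all genes. It was in the window of 31 of the 33 subunit genes and of 16 of the 20 factor genes, and SDH9 had none. It was in the window of 12 of the 12 genes with no upstream summit and of 35 of the 42 with one (83.3%). Of the 151 upstream summits 38 had a CCAAT centred within 50 bp (25.2%), against 19.5% of the 18136 upstream summits of all genes. A site found in several lists counts once for each. The windows of the 54 genes held a median of 2 CCAAT, against 1 for all genes, so any position in them is more often near one. Whether summits lie nearer to CCAAT than other positions do was not tested. The base composition of the windows was alike, with a median G and C share of 36.8% and 36.6%. These are matches to 5 letters and not measured sites of Hap2/3/4/5.

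A pair of other gene lists was counted in the same way. Of 37 further nuclear genes of respiration that the symbols leave out (among them CYC1, CYT1, RIP1, COR1, the NADH dehydrogenase genes and HAP1 to HAP5), an upstream summit was found at 13 and 12 in the wild type, 14 and 12 in spt7 mutant cells and 15 and 12 in spt8Δ. These counts are 32.4 to 40.5% of the 37, where 38 to 44.8% of all genes had an upstream summit. The coding rate of the 37 was 1.29 to 1.80 summits per kb, below that of the 54 genes in each list. Of the 56 genes of mitochondrial ribosomal proteins, which like these serve mitochondria from the nucleus, 20 and 26 in the wild type, 28 and 20 in spt7 mutant cells and 21 and 25 in spt8Δ had an upstream summit. These counts are 35.7 to 50% of the 56. In the wild type the 56 genes had more at 37 °C than at 25 °C, and in the spt7 mutant fewer. The 54 genes had the opposite order in each. Neither difference was tested. Their coding rate was 1.47 to 2.06 summits per kb. It was above that of the 54 genes in the wild type at 37 °C (1.98 against 1.86) and the spt7 mutant at 25 °C (2.06 against 1.94), and below it in the other lists.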

How the data were processed

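ChIP-exo reads of MYC-tagged Sus1 were mapped by the authors to sacCer3 with BWA (0.6.2 in the submitters' processing notes, which also name CASAVA 1.7), and 1 peak list per strain and temperature was deposited. The deposited values are, per peak, a fold enrichment (the ratio of the summit to its local background) and the −log10 of p and of q. The caller and the pooling of replicates are not given in the sources used here. The labels name 3 replicates of each tagged condition, the methods 2.

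Summits were counted with Python 3.11.15 (numpy 2.4.6, pandas 2.3.3, scipy 1.17.1, statsmodels 0.14.6) in windows of the RefSeq annotation of the same genome, a summit counting for every gene whose window held it. Sites are peaks merged where they overlap by at least 1 bp. Background reads were solved from fold enrichment and −log10 p. The fold was taken as peak height over background, with 1 added to each, and p as a Poisson probability. The counting and this solution were tested on simulated data. The simulated peaks followed the same formulas, so that test cannot show whether the deposited values follow them. From the deposited values, 99.99 to 100% of the heights solved in each list were within 0.05 of a whole number. With 1 list per condition no test was made, and intervals of shares are Wilson intervals at 95%. Those of differences are Newcombe intervals for independent shares, which ignore that the same genes are in both lists. The 54 genes, the other lists and the windows were chosen with earlier results of these data known. Values in every list are given for genes with an upstream summit in at least 5 lists, a site in all 6 lists, one of the 5 highest fold enrichments, no summit in at least 4 lists, or an upstream summit at only one temperature in all strains, and for COX5A and COX5B. Alternatives were a −log10 q of at least 5, equal numbers of peaks (16593, then the 5000 strongest), peak midpoints, upstream windows of 300 and 1000 bp, a downstream window of 250 bp, leaving out peaks within 200 bp of tRNA genes or summits inside another gene, and subunits only. The comparisons of complex IV with V, of subunits with factors between strains and of summits per kb were set under these alternatives after seeing the data.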

Additional observations from a re-analysis of the deposited data

Results flagged for a closer look

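The share of the 54 genes with an upstream summit changed with heat by -7.41 percentage points in the wild type and by 5.56 in the spt7 mutant, in opposite directions. Without summits inside another gene the changes were -1.85 and 0. The difference between the strains was not tested, since each condition has 1 list. In spt8Δ the share was the same at both temperatures.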

How the results depend on the processing

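No paired analysis was possible because each condition has 1 list, and none of a single replicate was used. Of 214 values under the alternatives, 4 changed direction: the change with heat in the upstream share was 3.70 percentage points in the wild type with a window of 1000 bp and -1.85 in the spt7 mutant both with equal numbers of peaks and with a window of 300 bp, and that in the coding share of spt8Δ was -7.41 with the 5000 strongest peaks. Without summits inside another gene it was -1.85 (wild type) and 0 (spt7 mutant), and also 0 in the spt7 mutant with a −log10 q of at least 5. With subunits only it was 18.2 upstream in spt8Δ, whose upstream share at 25 °C was 27.3%. In the order wild type, the spt7 mutant and spt8Δ, each at 25 and then 37 °C, the 5000 strongest peaks gave upstream shares of 14.8, 5.56, 5.56, 7.41, 11.1 and 11.1% and coding shares of 37.0, 25.9, 27.8, 27.8, 29.6 and 22.2%, and an upstream window of 1000 bp gave 70.4, 74.1, 64.8, 75.9, 72.2 and 61.1%, since these count fewer peaks or more bases. A window of 300 bp gave 25.9% in the wild type at 25 °C, 16.7 and 14.8% in the spt7 mutant and 20.4 and 24.1% in spt8Δ. Without summits inside another gene the upstream share was 29.6% in the wild type at 25 °C, 18.5 and 18.5% in the spt7 mutant and 25.9% in spt8Δ at 37 °C. With a −log10 q of at least 5 it was 31.5% in the wild type at 25 °C. Complex IV had a larger upstream share than complex V in 6 lists under each alternative but the 5000 strongest peaks, with 4, and coding summits per kb exceeded those of all genes in 6 lists under each alternative that changes them. The subunits had a lower upstream share in both mutants than in the wild type at 25 °C under each alternative tried, by 3.03 to 27.3 points. With 54 genes the upstream and coding intervals span over 20 percentage points.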
